A study of Mus musculus with 12 samples.

Results

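Of the 57132 features in the count table of the mouse striatum, 9 are genes of neuronal calcium-binding proteins. They were taken by symbol: Calb1, which encodes a calcium buffer, the neuronal calcium sensors Hpca, Hpcal1, Hpcal4, Ncald, Ncs1 and Vsnl1, and the calmodulin genes Calm2 and Calm3. All 9 were among the 13902 features that passed the filter on low counts. The study compared C57Bl/6 mice with a knockout of the trace amine-associated receptor 5 gene (TAAR5-KO) with their wild-type littermates (WT), all 10 months old, to describe what the loss of the receptor does to gene expression in the striatum. Each group had 6 mice of both sexes, and the libraries are named NK1 to NK6 for TAAR5-KO and NK7 to NK12 for WT. The sources used here do not tie a library to an animal or a sex, so p-values measure the spread between these libraries. The tissue was what remained of a coronal slice in front of bregma once the cortex had been taken off, so it was bulk tissue of several cell types. In such tissue, fewer cells of a type and less RNA per cell cannot be told apart.

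The Taar5 gene went against the labels. Each of the 6 libraries labelled TAAR5-KO held 1 to 6 counts of it, while NK8 and NK11 were the WT-labelled libraries with any, at 1 and 2 counts, and the other 4 had 0. Every direction given here is therefore one between labels. A library held between 11269915 and 34824450 counts. Ribosomal RNA features took 64.3% to 88.1% of them, which left 1819907 to 6399188 counts for all other features. Values are CPM, counts scaled to a common library total, after scaling by the trimmed mean of M-values (TMM). All 6 markers shared by striatal spiny neurons were counted in every library, and so were all 9 markers of cortical pyramidal neurons, although the cortex had been removed.

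Calcium entering a neuron binds to proteins that carry EF-hands, a helix-loop-helix fold whose loop holds the ion. Buffers such as calbindin, the product of Calb1, take up calcium and limit how far and how long a signal spreads. Sensors change shape when they bind it and pass the signal on: calmodulin does so in every cell through kinases, phosphatases, channels and cyclases, while the neuronal calcium sensors carry a fatty acid at the amino terminus with which many of them move to membranes. In the striatum calbindin is known as a marker of the spiny neurons of the matrix compartment, and hippocalcin, the product of Hpca, is abundant in spiny neurons.

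The loop pattern of the EF-hand was found 4 times in the protein of Calb1, 4 times in that of Calm2 and of Calm3 and 3 times in that of each neuronal calcium sensor, and a glycine follows the first residue in all 6 sensors but not in Calb1, Calm2 or Calm3. Calm2 and Calm3 encode the same 149 residues with 100% identity. The coding sequences that do so differ, and within them those differences are what lets a read be told apart. The first 240 bases of the coding sequence of each canonical transcript (GENCODE M39, GRCm39) are shown for that reason, with capitals at the 40 positions where they differ.

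Calm2: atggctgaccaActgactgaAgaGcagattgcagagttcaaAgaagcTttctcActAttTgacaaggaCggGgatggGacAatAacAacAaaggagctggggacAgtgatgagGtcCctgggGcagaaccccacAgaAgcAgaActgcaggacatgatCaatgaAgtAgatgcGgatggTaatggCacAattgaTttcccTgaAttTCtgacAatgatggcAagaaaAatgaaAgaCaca
Calm3: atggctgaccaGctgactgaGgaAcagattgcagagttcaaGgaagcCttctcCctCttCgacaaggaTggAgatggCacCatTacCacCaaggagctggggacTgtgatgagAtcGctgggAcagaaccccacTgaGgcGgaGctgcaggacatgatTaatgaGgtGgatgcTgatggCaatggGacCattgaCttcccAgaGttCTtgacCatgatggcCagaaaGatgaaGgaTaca

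Over the whole coding sequence of 447 bases, 78 positions differed, and 74 of these were at the last base of a codon. The longest run shared by both coding sequences, set side by side from the first base, was 17 bases, shorter than the reads of 100 bases. The exons that were counted, 1467 bases for Calm2 and 2423 for Calm3, reach beyond the coding sequence and were not compared here. Among the sensors the closest pair was Hpca and Hpcal1, with the same residue at 181 of 193 positions (93.8%). The first 180 bases of their coding sequences are shown because the levels of these near relatives were far apart, with capitals at the 22 positions that differ.

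Hpca: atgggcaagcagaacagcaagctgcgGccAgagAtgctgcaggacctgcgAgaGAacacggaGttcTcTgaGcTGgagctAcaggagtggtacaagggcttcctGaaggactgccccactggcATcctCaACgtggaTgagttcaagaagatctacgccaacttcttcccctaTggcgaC
Hpcal1: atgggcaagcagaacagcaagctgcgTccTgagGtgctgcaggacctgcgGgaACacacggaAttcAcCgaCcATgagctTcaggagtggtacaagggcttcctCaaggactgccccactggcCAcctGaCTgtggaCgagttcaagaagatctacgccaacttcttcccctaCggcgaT

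Over all 579 coding bases of Hpca and Hpcal1, 81 positions differed, 62 of them at the last base of a codon, and the longest shared run was 38 bases. Other close pairs were Hpcal1 and Ncald, with 89.6% of residues alike, Hpcal4 and Vsnl1, with 89.5%, and Hpca and Ncald, with 88.1%. Ncs1 stood apart, with 55.2% to 58.0% of residues alike between it and the other 5 sensors. How the counting treated reads that map to several places is not given in the sources used here, so genes with near-identical copies are less certain. For Calm2, the processed pseudogenes Gm7308 and Gm15720 were alike at 96.9% of 447 bases and 98.2% of 276 bases, and they had 16 and 63 counts over the 12 libraries. For Calm3, the pseudogene Gm5881 was alike at 96.2% of 367 bases and had 16 counts. For Vsnl1, a stretch of 126 bases on the other strand of Smc6 transcripts in GENCODE M39 was identical; Smc6 had 3052 counts, while its exons in the deposited table do not overlap those of Vsnl1. Calm2 itself had 62082 counts and Calm3 had 31783.

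The levels of the 9 genes covered a wide range. To set genes beside each other, CPM were divided by the length of the merged exons in kilobases, and neighbours in the order were compared over the 12 libraries by an exact two-sided sign-flip test of their log2 ratio, whose smallest possible p is 0.000488. Calm2 was highest, with 170 ± 24.03 CPM per kilobase (SD, n = 12). Vsnl1, the gene of visinin-like protein, followed with 65.9 ± 16.1 CPM per kilobase, and Calm3 with 49.1 ± 7.30. Hpca had 20.4 ± 2.41 CPM per kilobase and Hpcal4, the gene of a hippocalcin-like protein, had 14.3 ± 2.39. The lower part of the order was Ncs1, Calb1, Ncald and Hpcal1, with 4.22 ± 0.635, 3.98 ± 0.680, 3.27 ± 0.664 and 2.01 ± 0.486 CPM per kilobase. The highest and the lowest mean level were 84.8-fold apart.

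Of the 8 pairs of neighbours, 7 differed beyond the spread between libraries. In 5 of these the upper gene was above the lower one in 12 of 12 libraries. Vsnl1 was above Calm3 in 11 of 12, by 1.32-fold on average (exact sign-flip test, adjusted p = 0.00195), and Calb1 was above Ncald in 9 of 12, by 1.23-fold (exact sign-flip test, adjusted p = 0.0363). The order of Calb1 and Ncald rests on the division by merged exons, 4846 and 8581 bases. In counts over all libraries Ncald had more, 7341 beside 4725 for Calb1. The test does not cover this choice of length. Over all 12 libraries Ncs1 and Calb1 did not differ beyond their spread, with Ncs1 the higher in 5 of 12 (exact sign-flip test, p = 0.428). These comparisons of Calb1 pooled the labels, and the order was not the same in each label. Calb1 was above Ncald and above Ncs1 in every library labelled TAAR5-KO. Under the WT label, Ncald was the higher in NK7, NK11 and NK12, and Ncs1 was the higher in every library but NK9. The order within a label was not tested. Of the close relatives by sequence, Ncald and Hpcal1 were neighbours in level, 1.64-fold apart, while others were further apart: Hpca was 10.4-fold above Hpcal1 on average, from 7.28-fold to 19.6-fold over the libraries, and Vsnl1 was 4.54-fold above Hpcal4.

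**Figure D1:**
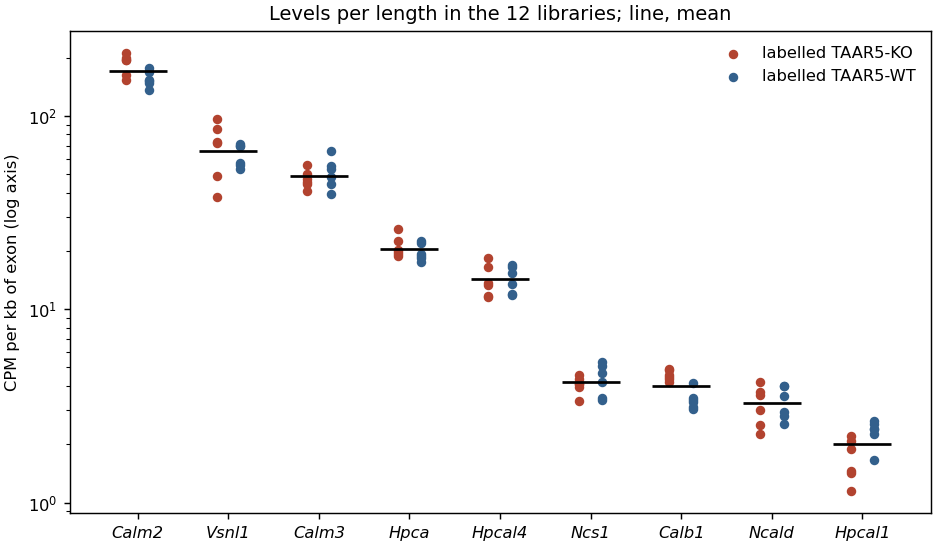
Level of each of the 9 genes per exon length (CPM per kilobase, log axis) in the 12 libraries, coloured by label, with a line at the mean over all libraries. Calm2 is highest with a mean of 170 and Hpcal1 lowest with a mean of 2.01, and the points of Ncs1 and Calb1 overlap.

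The comparison between labels gave 1 of the 9 genes as changed, Calb1, which was 1.34-fold higher in the libraries labelled TAAR5-KO on the TMM scale, while with library size as the only scaling, which put the median of all features at −0.49, its log2 fold change was −0.040. None of the 6 sensors and neither of Calm2 and Calm3 passed the threshold, an adjusted p under 0.1 in edgeR's likelihood ratio test. Over all features tested, the same rule called 1.65%, with 0.957% higher and 0.691% lower in the libraries labelled TAAR5-KO. The quasi-likelihood test of edgeR also called 1 of the 9, again Calb1, against 0.453% of all features. Calls were also made after each library's trend on the GC content of genes had been removed, and then 0 of the 9 were called, against 0.619% of all features, while 2 of the 9 had an unadjusted p under 0.05 by the likelihood ratio test, against 9.02% of all features in that fit. Without that removal 3 of the 9, Calb1, Hpcal1 and Calm2, had an unadjusted p under 0.05, against 11.9% of all features. The CPM of both labels did not overlap for 1 of the 9, against 1.01% of all features. In direction the 9 were divided, with 4 higher and 5 lower, and their median log2 fold change was −0.020 beside −0.0059 over all features.

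**Figure D2:**
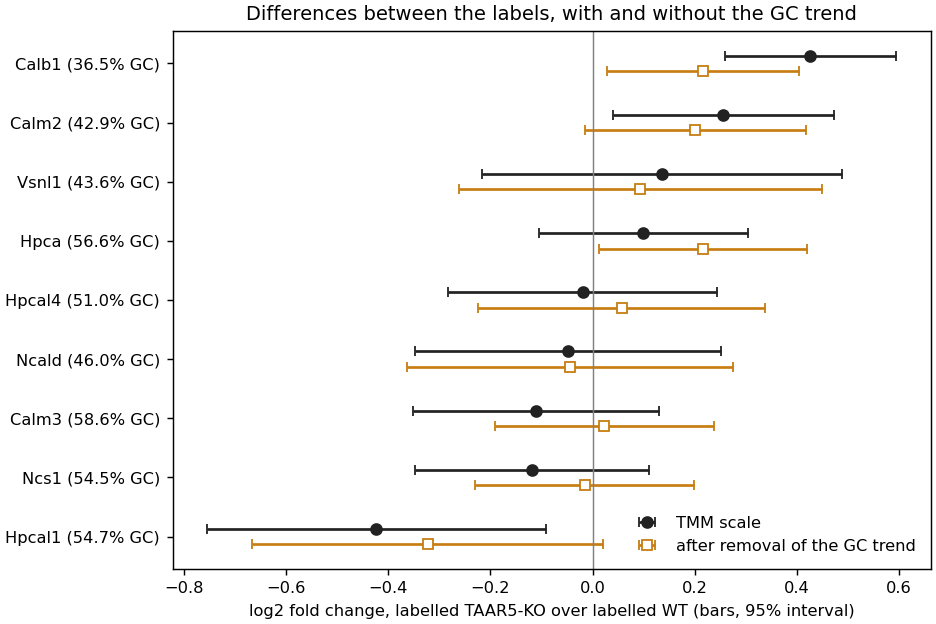
Log2 fold change between the libraries labelled TAAR5-KO and WT for the 9 genes, with their GC content and 95% intervals, from edgeR's likelihood ratio model and from the same model after removal of the GC trend. The interval of Calb1, 0.26 to 0.59 before the removal, is well above 0, and its estimate after the removal is 0.22 (SE 0.096).

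Calb1 (ENSMUSG00000028222.3, protein coding) lies on the plus strand of chromosome 4 of GRCm39 from 15881264 to 15908064, with 4846 exonic bases. Its lowest, median and highest values were 20.4, 21.9 and 23.7 CPM in the libraries labelled TAAR5-KO. In the libraries labelled WT they were 14.7, 16.2 and 20.0 CPM. Every library labelled TAAR5-KO thus lay above every library labelled WT, but by little at the edge, where NK1 had 20.4 and NK9 had 20.0 CPM. The means were 22.1 ± 1.27 and 16.5 ± 1.89 CPM (SD, n = 6 in each), from 122 to 814 counts a library. This is a log2 fold change of 0.43 (SE 0.086, 95% interval 0.26 to 0.59, adjusted p = 0.00069 in edgeR's likelihood ratio test), the 13th smallest p of all features. In the quasi-likelihood test its adjusted p was 0.0351. The call held when any 1 of the 12 libraries was left out, with log2 fold changes from 0.40 to 0.48 and adjusted p up to 0.0102.

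This call depended on whether the GC trend of each library was removed. The exons of Calb1 have 36.5% GC, and 2.00% of the features tested have less, where the median is 48.4%. The trend of the counts on GC content, taken at 37% GC, lay between −0.020 and 0.33 on the log2 scale for TAAR5-KO-labelled libraries and between −0.30 and 0.097 for the others. With each library's trend removed, Calb1 differed by 0.22 on the log2 scale (SE 0.096, adjusted p = 0.447 in edgeR's likelihood ratio test), so the call was lost, and the part of base composition in the difference was not tested further. The summed CPM of the 6 markers of spiny neurons, the cells known for calbindin, were 305 to 394 in the libraries labelled TAAR5-KO and 181 to 326 in those labelled WT. All 6 had a positive log2 fold change, with a median of 0.34, and 0 were called in the likelihood ratio test. Across the 12 libraries, r between this sum and Calb1 was 0.56 (permutation p = 0.0353, adjusted p = 0.106 over 18 relations) and rho was 0.75 (permutation p = 0.00653, adjusted p = 0.0294). Without NK3 and NK11, farthest from the median of the sum, r was 0.69, and within the labels it was 0.15 (TAAR5-KO) and 0.066 (WT), with n = 6 in each.

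**Figure D3:**
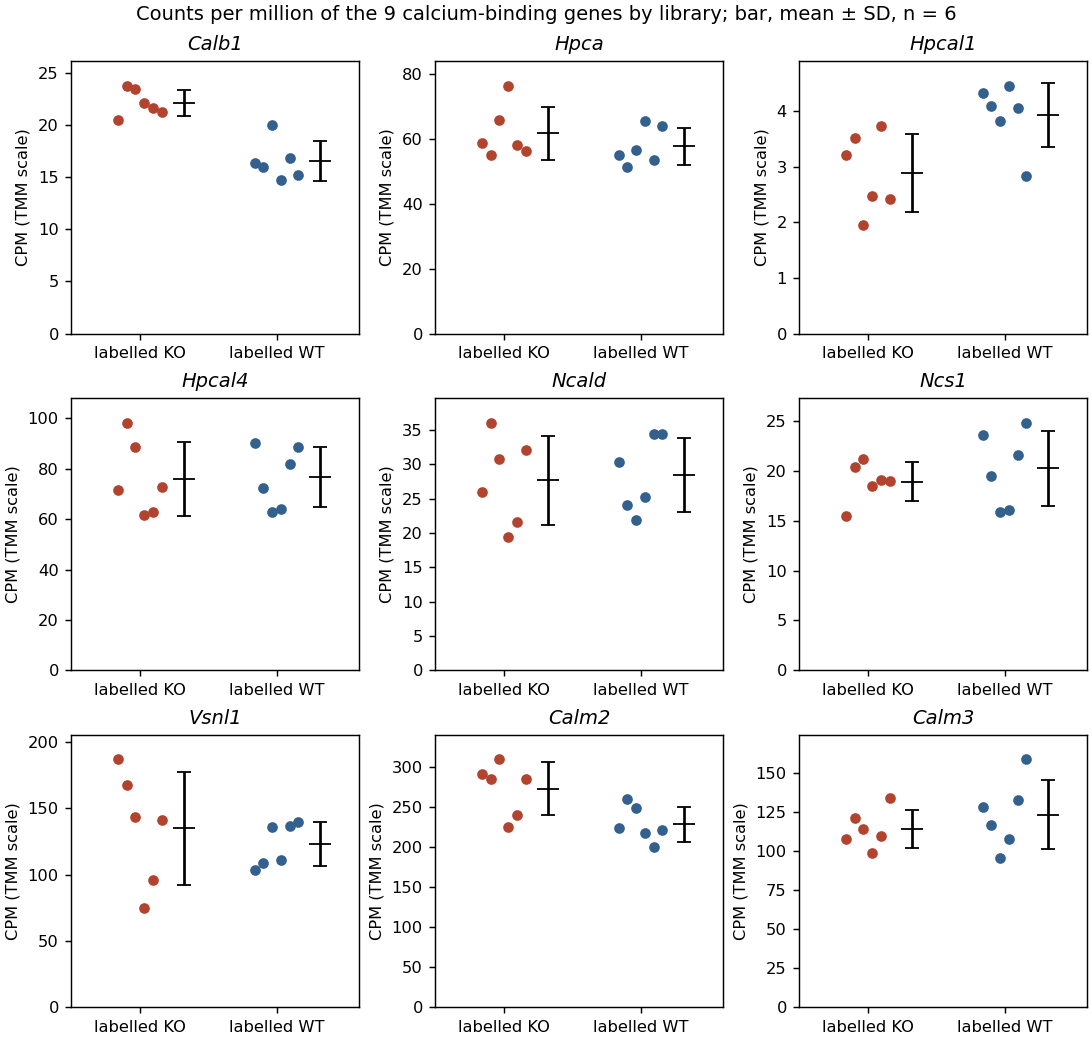
CPM of each of the 9 genes in the 12 libraries, by label, with 1 point a library, the group mean and its SD (n = 6). The groups are apart for Calb1, with means of 22.1 and 16.5 CPM, and overlap for the other 8, and the libraries labelled TAAR5-KO reach from 74.6 to 187 CPM for Vsnl1.

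Among the sensors, Hpcal1 had the largest difference between the labels and the lowest counts. The gene (ENSMUSG00000071379.3, chromosome 12, 17740857 to 17841934, plus strand) encodes hippocalcin-like protein 1, also called VILIP-3. It had 1.94, 2.85 and 3.73 CPM as lowest, median and highest value in the libraries labelled TAAR5-KO and 2.82, 4.08 and 4.46 CPM in those labelled WT, from 24 to 125 counts. All 6 libraries labelled TAAR5-KO lay below the median of those labelled WT and 3 lay below all of them, so the groups overlapped. On the log2 scale it differed by −0.42 (SE 0.17, 95% interval −0.75 to −0.092), and the adjusted p of 0.249 in edgeR's likelihood ratio test did not pass. Without NK12, the lowest library labelled WT, it was −0.53 with an adjusted p of 0.0840, past the threshold. With the GC trend removed it was −0.32, with an adjusted p of 0.601 in the likelihood ratio test.

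Vsnl1 (ENSMUSG00000054459.9, chromosome 12, 11375243 to 11486614, minus strand) encodes visinin-like protein 1 and was the sensor with the highest level. It had 74.6, 143 and 187 CPM as lowest, median and highest value in the libraries labelled TAAR5-KO and 104, 124 and 140 CPM in those labelled WT. The libraries labelled TAAR5-KO lay on both sides: 4 were above every library labelled WT, and NK4 and NK5 were below every one. The coefficient of variation was 31.5% in the libraries labelled TAAR5-KO and 13.5% in those labelled WT; the difference between these was not tested. The log2 fold change of 0.14 (SE 0.18, 95% interval −0.22 to 0.49, adjusted p = 0.831 in edgeR's likelihood ratio test) has an interval on both sides of 0.

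Hpca (ENSMUSG00000028785.14, chromosome 4, 129005363 to 129015829, minus strand) had 55.1, 58.4 and 76.3 CPM in the libraries labelled TAAR5-KO and 51.4, 55.7 and 65.6 CPM in those labelled WT, as lowest, median and highest value. The groups overlapped, with a log2 fold change of 0.099 (SE 0.10, 95% interval −0.11 to 0.30, adjusted p = 0.771 in edgeR's likelihood ratio test). Its exons overlap those of Tmem54 on the other strand, which had 7 counts in all. Hpca has 56.6% GC, far above Calb1, and with the GC trend removed its log2 fold change was 0.22, the same size as that of Calb1 in that fit, with an adjusted p of 0.498.

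Ncs1 (ENSMUSG00000062661.7, chromosome 2, 31135835 to 31186001, plus strand), the gene of neuronal calcium sensor 1, a regulator of dopamine D2 receptor desensitization, had 15.5, 19.1 and 21.2 CPM in the libraries labelled TAAR5-KO and 15.9, 20.6 and 24.9 CPM in those labelled WT, as lowest, median and highest value. The groups overlapped, with a log2 fold change of −0.12 (SE 0.12, 95% interval −0.35 to 0.11, adjusted p = 0.747 in edgeR's likelihood ratio test). Hpcal4 (ENSMUSG00000046093.10, chromosome 4, 123077020 to 123088494, plus strand) had 61.6, 72.0 and 98.4 CPM beside 63.0, 77.1 and 90.3 CPM in the same order. Ncald (ENSMUSG00000051359.16, chromosome 15, 37366419 to 37792814, minus strand), the gene of neurocalcin delta, had 19.4, 28.3 and 36.1 CPM beside 21.9, 27.8 and 34.4 CPM. For both genes the labels covered nearly the same range, with log2 fold changes of −0.020 (95% interval −0.28 to 0.24) for Hpcal4 and −0.048 (95% interval −0.35 to 0.25) for Ncald, whose signs changed with the processing. The exons of Ncald overlap the long non-coding RNA Gm28221 on the other strand, which had 0 counts in all 12 libraries, and those of Gm49397 on the same strand, which had 2 counts in all.

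Calm2 (ENSMUSG00000036438.15, chromosome 17, 87740840 to 87754363, minus strand) had the largest positive difference among the genes that were not called. It had 224, 285 and 309 CPM as lowest, median and highest value in the libraries labelled TAAR5-KO and 199, 222 and 259 CPM in those labelled WT. All 6 libraries labelled TAAR5-KO lay above the median of those labelled WT, and 4 lay above every one. Its difference of 0.26 on the log2 scale (SE 0.11, 95% interval 0.039 to 0.47, adjusted p = 0.308 in edgeR's likelihood ratio test) did not pass. For Calm3 (ENSMUSG00000019370.11, chromosome 7, 16649304 to 16658039, minus strand) the values were 98.8, 112 and 134 CPM beside 95.4, 123 and 159 CPM. The groups overlapped, with a log2 fold change of −0.11 (SE 0.12, 95% interval −0.35 to 0.13, adjusted p = 0.783 in the likelihood ratio test), and with the GC trend removed it was 0.023.

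Per exon length, Calm2 was 3.48-fold above Calm3 on average over the 12 libraries. The ratio varied from 2.29-fold in NK12 to 4.46-fold in NK3, and it was not tested between the labels. Calm2 has 42.9% GC and Calm3 has 58.6%, and at 57% GC the trend lay between −0.19 and 0.011 for TAAR5-KO-labelled libraries and between −0.051 and 0.15 for the others, highest in NK12. The part of base composition in this ratio was not tested.

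Other genes of calcium binding and transport were taken in 4 lists by symbol, 58 genes in all, of which 54 were tested. In edgeR's likelihood ratio test 1 of these was higher and 1 was lower in the libraries labelled TAAR5-KO, 31 had a positive and 23 a negative log2 fold change, and 8 had an unadjusted p under 0.05, where the shares over all features were 1.65% called and 11.9% with an unadjusted p under 0.05. The called genes were Atp2b1 and S100b. Neither passed in the quasi-likelihood test or after removal of the GC trend, where 0 of the 54 genes were called. Of the relatives of the sensors, 0 of 4 tested were called by the likelihood ratio test, and 1, Kcnip1, a subunit of A-type potassium channels, had an unadjusted p under 0.05. Rcvrn, Guca1a and Guca1b, genes of the photoreceptors, and Scgn, the gene of secretagogin, did not reach the filter, with at most 4 counts in a library.

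Atp2b1, the gene of a calcium pump of the plasma membrane that calmodulin stimulates, had 157, 202 and 229 CPM as lowest, median and highest value in the libraries labelled TAAR5-KO and 127, 152 and 159 CPM in those labelled WT. Of the 6 libraries labelled TAAR5-KO, 4 were above every library labelled WT. On the log2 scale the difference was 0.40 (SE 0.12, adjusted p = 0.0742 in the likelihood ratio test and 0.170 in the quasi-likelihood test of edgeR). It was the only one of the 15 genes of pumps, exchangers and store channels that was called, and 11 of these had a positive log2 fold change, with a median of 0.098. S100b, the gene of an EF-hand protein known from astrocytes, had 8.51, 12.5 and 13.8 CPM in the libraries labelled TAAR5-KO. In those labelled WT it had 13.9, 15.0 and 16.5 CPM. The labels thus did not overlap, as for 1.01% of all features tested, but by little at the edge, 13.8 beside 13.9 CPM. On the log2 scale S100b was lower by a fold change of −0.35 (SE 0.11, adjusted p = 0.0771 in the likelihood ratio test and 0.175 in the quasi-likelihood test). The summed CPM of 8 astrocyte markers, each counted in every library, overlapped, with 983 to 1199 for TAAR5-KO-labelled libraries and 1094 to 1285 for the others. Of these 8 markers 0 had a positive log2 fold change, their median was −0.32, and 1 was called lower. For 6 microglia markers 0 were positive as well, with a median of −0.36 and 2 called lower. For 6 oligodendrocyte markers 1 was positive, with a median of −0.12 and 0 called. The part of these cell types in the difference of S100b was not tested. Of the 18 EF-hand genes tested in that list 13 had a negative log2 fold change, with a median of −0.15. Among the 17 partners of calmodulin, such as the subunits of calcineurin, 13 had a positive log2 fold change, with a median of 0.15, and 0 were called by the likelihood ratio test, while 3 had an unadjusted p under 0.05.

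Several of the genes varied widely within a label, and some of them did so along with the markers of cortical pyramidal neurons. The summed CPM of the 9 markers lay between 53.5 and 134 for TAAR5-KO-labelled libraries and between 56.8 and 144 for the others, so the ranges nearly coincided. Ncald followed it most closely, with r = 0.95 across the 12 libraries (permutation p = 2e-05, adjusted p = 0.00036 over 18 relations, rho = 0.90, permutation p = 0.00022). Without NK4 and NK9, farthest from the median of the sum, r was 0.93, and within the labels it was 0.95 and 0.97, with n = 6 in each. For Hpcal4, r was 0.86 (permutation p = 0.00088, adjusted p = 0.00528, rho = 0.82, permutation p = 0.00186), and 0.80 without NK4 and NK9. For Calm3, r was 0.85 (permutation p = 0.00032, adjusted p = 0.00288, rho = 0.83, permutation p = 0.00144), and 0.75 without both libraries. Within the labels, r was 0.83 and 0.90 for Hpcal4 and 0.80 and 0.97 for Calm3.

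The other members did not pass on r. Ncs1 had r = 0.69 (permutation p = 0.0139, adjusted p = 0.05004, just over the threshold of 0.05), and rho = 0.71, which passed (permutation p = 0.0125, adjusted p = 0.045). Vsnl1 had r = 0.58 (permutation p = 0.0468, adjusted p = 0.120, rho = 0.63, permutation p = 0.0311). Within the labels (TAAR5-KO, then WT) r was 0.43 and 0.92 for Ncs1 and 0.76 and 0.28 for Vsnl1. With the cortical sum, Calm2 had r = 0.20 (permutation p = 0.526, adjusted p = 0.631), and within the labels 0.91 and −0.60. For Hpca, known from spiny neurons, r was −0.28 (permutation p = 0.393; rho = −0.15, permutation p = 0.639), and for Calb1 it was −0.085 (permutation p = 0.789; rho = −0.042, permutation p = 0.903). With the sum of the spiny neuron markers, Hpca had r = 0.44 (permutation p = 0.143, adjusted p = 0.236; rho = 0.47, permutation p = 0.127). Calm2 had r = 0.64 with that sum (permutation p = 0.013, adjusted p = 0.05004; rho = 0.69, permutation p = 0.0171), and r was 0.29 without NK3 and NK11. Within the labels it was −0.030 (TAAR5-KO) and 0.76 (WT). The other 6 genes had r from −0.53 for Calm3 to −0.10 for Vsnl1 with that sum, with adjusted permutation p from 0.173 to 0.782. These relations were chosen after the data had been seen, 3 of the 18 had an adjusted p under 0.05 on r and 5 on rho, and the gene and the sum share the scaling factor of a library. The part of cortical tissue in these levels was not tested.

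**Figure D4:**
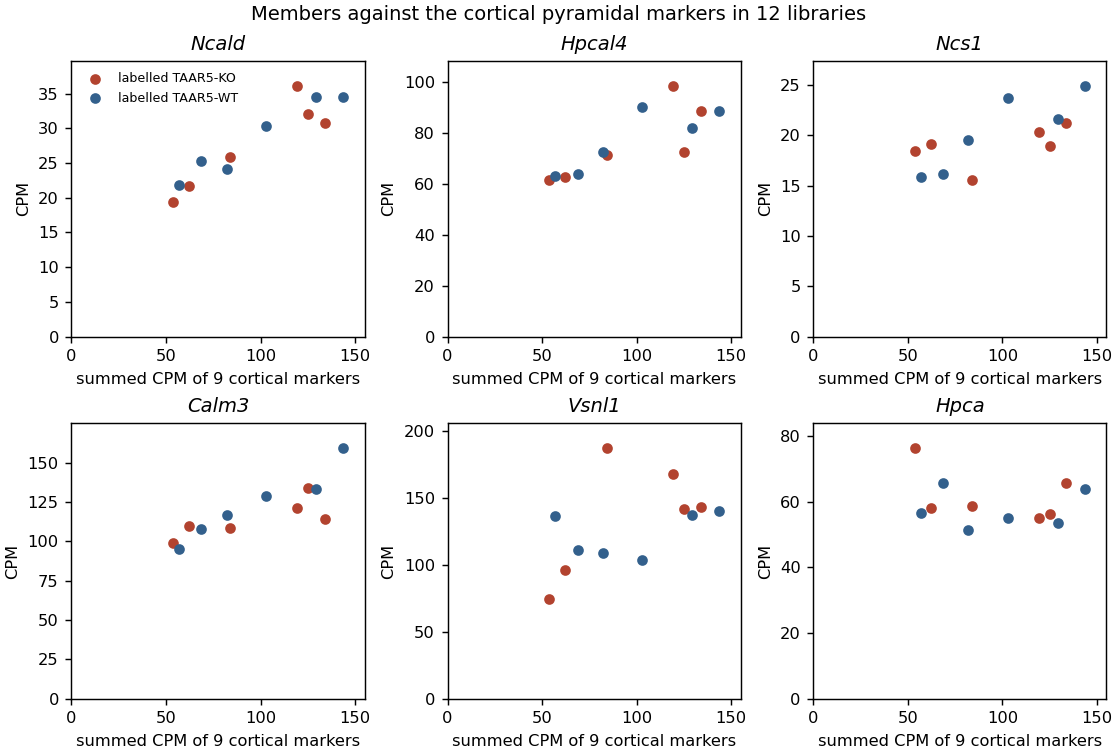
CPM of Ncald, Hpcal4, Ncs1, Calm3, Vsnl1 and Hpca (vertical axes) against the summed CPM of 9 markers of cortical pyramidal neurons (horizontal axes), with 1 point a library, coloured by label. Ncald climbs with the sum in both labels (r = 0.95 on the log2 scale over 12 libraries), and Hpca does not (r = −0.28).

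Across the same 12 libraries, the features whose log2 CPM were most like those of Calb1 were C630031E19Rik (r = 0.92, rho = 0.82), Abcc5 (r = 0.90, rho = 0.90), the gene of a membrane transporter, and Tceal9 (r = 0.90, rho = 0.89). C630031E19Rik was also called higher in the libraries labelled TAAR5-KO, with a log2 fold change of 1.06 and an adjusted p of 0.0913 in edgeR's likelihood ratio test, and the other two were not called. The nearest feature to Ncald was Sstr2, the gene of a somatostatin receptor (r = 0.97), and that of Calm3 was Shank1, the gene of a scaffold of excitatory synapses (r = 0.97). For Vsnl1 it was Ccn4 (r = 0.98), for Hpcal4 Hectd4 (r = 0.96), for Hpcal1 Rab27a (r = 0.94), for Ncs1 Dusp8 (r = 0.93), for Calm2 Zdhhc17 (r = 0.92) and for Hpca Nmnat1 (r = 0.88). Each is the highest of all features tested and so describes these libraries, with no test.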

How the data were processed

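Striatal RNA of 12 mice, 6 of each genotype, had been sequenced. Per the labels and methods, the authors removed ribosomal RNA, made directional libraries, trimmed the reads with cutadapt 4.1, mapped them on GRCm39 with STAR 2.7.11b and assigned them to genes with featureCounts 2.0.6. What the authors deposited are counts in whole numbers, not normalized. The strand setting is not given in the sources used here. The table has 12 other library columns, not used here. Library numbers are not tied to animals, so no pairing was made.

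The filter kept features that reached a CPM of 0.5 in 3 or more libraries. Groups were compared with TMM factors and the likelihood ratio test of edgeR 4.0.16 (R 4.3.3, limma 3.58.1), the test and threshold of the study, an adjusted p under 0.1 (Benjamini-Hochberg over all features). The study states a scaling to CPM and does not name TMM factors. The calls are not the same set as the study's, which tested and called fewer features, most of them lower in TAAR5-KO. With CPM on TMM library sizes in the filter, 13053 features were tested, the number the study gives, and 234 were called. The study too lists Calb1 as higher in TAAR5-KO. The quasi-likelihood test and DESeq2 1.42.0 were run beside it. GC and length trends were removed as offsets from a loess per library (span 0.5). Ratios and marker sums used TMM-scaled CPM. Correlations between features used log2 CPM with a prior count of 2 and had no test. Those with marker sums used log2 CPM and the log2 sum without a prior count, and their p-values came from permutations. Coordinates, exons and lengths are those of the deposited table on GRCm39, and sequences came from that genome with GENCODE M39. The fit was also run on counts simulated from its own means and dispersions. That simulation held no GC trend, so it cannot speak to the calls that depend on that trend.

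The 9 members and all lists were chosen with earlier results of these data known. The genes named are the members, Taar5, the list genes past the threshold, and the features nearest to each member, 3 for Calb1 and 1 for each other. Kcnip1 and the untested list genes were named after their values were seen. Markers of oligodendrocytes, microglia and spiny neurons are not reported one by one, and 1 planned result is not reported here.

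Total counts ran from 11269915 to 34824450, and precision follows from the 1819907 to 6399188 outside ribosomal RNA. For Taar5, with so few counts, no fold is given.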

Additional observations from a re-analysis of the deposited data

How the results depend on the processing

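Each member was read under 24 alternatives, 12 of which left out 1 library. Another was no refit: it kept the likelihood ratio fit with TMM factors and lowered the threshold to an adjusted p under 0.05. Calb1 stayed higher and past the threshold except with library size as the only scaling and with the GC trend removed (0.22). With library size only, which moved the median of all features to −0.49, the log2 fold changes were −0.040 for Calb1, −0.39 for Hpca, −0.49 for Vsnl1 and −0.25 for Calm2. In that fit 0 of the 9 members and 7 of all features were called by the likelihood ratio test, with 0 members at an unadjusted p under 0.05. Of its calls 0% were higher, against 58.1% in the main fit, the likelihood ratio test with TMM factors. With the GC trend removed, Hpcal4 was 0.057 and Calm3 was 0.023, with 0 members and 86 features called. Hpcal4 was 0.0091 with the length trend removed. With the ribosomal RNA share as covariate, Hpcal4 was 0.033 and Ncald was 0.018, and 98 features were called. In place of 229 features, the quasi-likelihood test called 63 (68.3% higher), no filter 93, and an adjusted p under 0.05 left 108. Leaving out 1 library gave 85 features (without NK11) to 414 (without NK4) and 1 to 2 members, with Hpcal1 added without NK12, and moved Hpcal4 from −0.10 to 0.032 and Ncald from −0.13 to 0.032. Other uncalled members moved by over 1.5 times: Vsnl1 between 0.024 (without NK1) and 0.26 (without NK4), Hpca between 0.028 (without NK4) and 0.15 (without NK10), Calm3 between −0.16 (without NK9) and −0.027 (without NK12), and Ncs1 between −0.17 (without NK9) and −0.055 (without NK12). By medians, 7 of the 9 places in the order of levels were kept, since Ncs1 and Calb1 changed places. Without the 2 libraries farthest from the median of the cortical sum, r was 0.13 for Calb1 and 0.037 for Hpca. Over all 12 libraries, rho of Vsnl1 with the spiny sum was 0.028, where r was −0.10. The causes were not tested. No paired analysis was possible because the columns carry library numbers that the labels do not tie to the numbered animals. Depth limits Hpcal1 most, with 24 to 125 counts a library.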
